A study of Mus musculus with 9 samples.

Results

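Lin9, Lin37, Lin52, Lin54, Mybl2, Mybl1, Foxm1 and Dyrk1a are 8 of the 19938 genes measured in serum-starved mouse embryonic fibroblasts that differ at the retinoblastoma gene Rb1. They were taken by name, as subunits of the MuvB complex, the transcription factors that join it and the kinase that steers its assembly, and all 8 had a probe set annotated to that symbol alone. Lin52 and Dyrk1a each had 2 such probe sets, of which the brighter (by its mean over the arrays) was taken. The fibroblasts were null (Rb -/-, no functional Rb1), ΔG (Rb ∆G/∆G, homozygous for an allele mutated at the common E2F contact of the protein) or WT (Rb +/+), with 3 arrays of each genotype. All cultures had been seeded at low density in 15 cm dishes and moved to medium with 0.1% serum 24 h later, a condition in which normal fibroblasts stop dividing. Whether the cultures used here had stopped was not tested. The series text calls the genotypes littermate-paired, but the labels do not say which arrays share a litter, how many embryos gave the cells or which part of Rb1 the null allele lacks. RNA was read on Affymetrix whole-transcript gene arrays, and every level below is a log2 RMA signal, on which a difference of 1 is a 2-fold difference.

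MuvB is a small complex of LIN9, LIN37, LIN52, LIN54 and the histone-binding protein RBBP4 that sits at promoters of cell cycle genes. In resting cells it binds the RB relatives p130 or p107 together with E2F4 or E2F5 and a DP protein, an assembly called DREAM that keeps those genes silent. DYRK1A favours this assembly by phosphorylating LIN52. When cells enter the cycle MuvB exchanges the pocket protein for B-MYB, the product of Mybl2, to form the MMB complex, and later recruits FOXM1, and the genes of mitosis are then switched on. Mybl1 encodes A-MYB, a relative of B-MYB best known from meiosis in the testis.

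Promoter sequences are shown for members that moved in different ways, because LIN54 itself reads a short promoter element and Mybl2 is a known E2F target. The RefSeq promoter table (GRCm38.p6) held 5 of the 8 genes, with 8 annotated starts, and each window runs from 250 bases before to 50 bases after the start. Each promoter reads 5′ to 3′ on the strand of its gene, and capitals mark matches, on either strand, to TTTGAA (the CHR element that LIN54 binds), CCAAT, the 8-letter E2F words TTTCCCGC, TTTCGCGC, TTTGCCGC and TTTGGCGC, or the shorter E2F word GGCGGGA, whose reverse complement overlaps TTTCCCGC when another C follows. The shorter word was added after the promoter of Mybl2 had been read. The windows are chr2:163054385-163054684 on the plus strand for Mybl2, chr12:84451258-84451557 on the plus strand for Lin52, chr5:100498524-100498823 on the minus strand for the downstream start of Lin54, and chr7:30559597-30559896 on the minus strand for Lin37.
Mybl2: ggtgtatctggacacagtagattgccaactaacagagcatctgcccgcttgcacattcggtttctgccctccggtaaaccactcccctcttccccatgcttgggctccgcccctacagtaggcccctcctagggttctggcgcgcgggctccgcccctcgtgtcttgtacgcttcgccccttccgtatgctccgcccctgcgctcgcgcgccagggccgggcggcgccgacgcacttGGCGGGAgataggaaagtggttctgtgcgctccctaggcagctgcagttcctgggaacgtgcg
Lin52: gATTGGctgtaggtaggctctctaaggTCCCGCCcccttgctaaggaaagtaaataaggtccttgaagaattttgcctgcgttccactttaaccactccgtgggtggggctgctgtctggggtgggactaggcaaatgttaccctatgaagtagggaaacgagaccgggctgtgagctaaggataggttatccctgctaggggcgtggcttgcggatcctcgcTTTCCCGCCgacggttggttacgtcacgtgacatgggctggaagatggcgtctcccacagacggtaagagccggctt
Lin54: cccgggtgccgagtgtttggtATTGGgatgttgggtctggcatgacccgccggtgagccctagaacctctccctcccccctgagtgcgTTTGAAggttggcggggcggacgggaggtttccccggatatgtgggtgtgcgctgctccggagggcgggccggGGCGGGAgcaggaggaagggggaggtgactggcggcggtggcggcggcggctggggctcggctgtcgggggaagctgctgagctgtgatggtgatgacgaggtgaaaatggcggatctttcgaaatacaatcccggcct
Lin37: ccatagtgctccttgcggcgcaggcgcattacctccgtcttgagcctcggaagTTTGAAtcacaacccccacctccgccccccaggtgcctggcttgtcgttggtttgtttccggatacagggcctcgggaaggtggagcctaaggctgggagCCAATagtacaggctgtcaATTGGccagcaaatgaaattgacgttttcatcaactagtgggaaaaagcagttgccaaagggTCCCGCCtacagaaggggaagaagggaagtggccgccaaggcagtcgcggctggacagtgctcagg

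In Mybl2 the only match was GGCGGGA at −13, and the exact words TTTGAA and CCAAT were absent from this window. Variants of these words were not searched. Lin52 held the 8-letter E2F word at −27 with the overlapping short word at −25, a second short word at −223 and a CCAAT box at −249. Lin37 held a CHR element at −197, CCAAT boxes at −97 and −78 and the short E2F word at −16. The downstream start of Lin54 had a CCAAT box at −229, a CHR element at −162 and the short E2F word at −89, whereas its upstream start had a CHR element at position 41 alone. Of the 3 starts of Dyrk1a, 1 held the short E2F word, 1 held none of these words, and the third held an 8-letter E2F word, a CHR element and a CCAAT box. Among all 32851 promoters of the table, 2.26% held an 8-letter E2F word, 11.3% the short one, 17.9% the CHR element and 37.4% CCAAT. The MYB core AACGG and the forkhead word TAAACA, also searched, were in 17.4% and 13.4% of all promoters and in none of the 8 here. Among 40 promoters of the late cycle target genes described further on, 67.5% held the CHR element, 77.5% CCAAT, 37.5% the MYB core, 12.5% the forkhead word, 30.0% the short E2F word and 2.5% an 8-letter one. A match describes letters in a window and does not show binding.

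**Figure D1:**
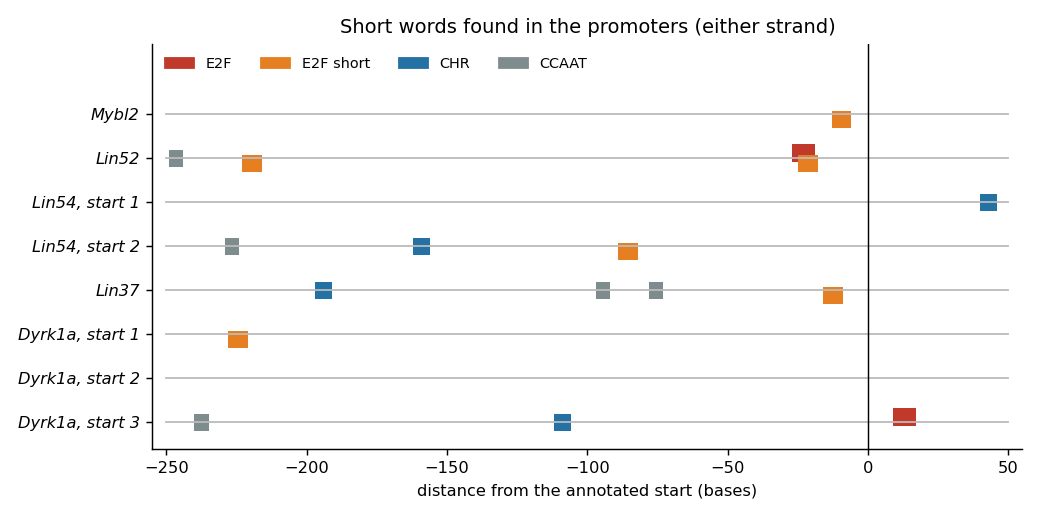
Positions of E2F, short E2F, CHR and CCAAT words in the promoters of the 5 genes found in the RefSeq table, drawn by distance in bases from each annotated start (vertical line). Each row is 1 start, and boxes are matches on either strand. The short E2F word lies at −13 in Mybl2 and −16 in Lin37, and the upstream start of Lin54 and the second start of Dyrk1a show 1 and no box.

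Rb1 itself read 8.18, 8.58 and 8.19 on the null arrays, 9.53, 9.76 and 9.54 on the ΔG arrays and 8.93, 9.17 and 9.16 on the WT arrays. Null cells were below WT cells in Rb1 by a log2 change of −0.77 (SE 0.118, adjusted p = 0.00115 in limma). Signal remained on the null arrays, and with the extent of the null allele unstated this level does not check the genotypes. Markers of fibroblasts were high on all arrays (mean of 11 genes 10.7 to 10.9 in null, 11.1 to 11.3 in ΔG and 11.1 to 11.4 in WT), and 8 of the 11 fell in null against WT, beside 10.1% of all genes. The mean of 14 macrophage and leukocyte markers ran from 5.64 to 6.14 in null, 5.93 to 7.52 in ΔG and 5.52 to 6.81 in WT, and the means of 9 epithelial and 7 endothelial markers lay between 5.65 and 5.97. Within those lists the keratin gene Krt19 rose 2.78-fold in null against WT and 2.25-fold against ΔG (limma adjusted p = 0.00126 and 0.0101), Emcn fell by 0.81 on the log2 scale in null against WT (0.0494), and no other marker of these 2 lists passed in null against WT or ΔG. The part of these other cell types in the results was not tested. ΔG replicate 3 stood apart from the other ΔG arrays, with a mean of 8.10 over 43 late cycle genes, against 7.52 and 7.41 on ΔG replicates 1 and 2. Xist was high (11.42 to 11.98) on the 3 null arrays and WT replicate 3 and low (4.24 to 4.45) on the 3 ΔG arrays and WT replicates 1 and 2, and the Y-linked genes ran the other way. Sex pattern and genotype therefore cannot be told apart between null and ΔG.

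Without Rb1, the genes for LIN9, B-MYB, A-MYB and FOXM1 were all higher. The first comparison asked what full loss of the protein does to this machinery, and 6 of the 8 genes rose in null against WT and none fell, where 8.38% of all genes rose and 10.1% fell (limma, Benjamini-Hochberg adjusted p under 0.05 over all genes). The rises were 1.86-fold for Mybl1, 1.67-fold for Foxm1, 1.60-fold for Lin9, 1.39-fold for Mybl2, 1.23-fold for Lin54 and 1.18-fold for Lin52. Lin37 and Dyrk1a did not pass. The median log2 change of the 8 genes was 0.39, beside −0.010 for all genes. In RNA from a whole culture, more cells expressing a gene and more RNA per cell cannot be told apart. The count of 6 was 3 without WT replicate 2, WT replicate 3 or null replicate 1, and 4 without null replicate 2 or ΔG replicate 1. It was 2 with the mean signal of 3 Y-linked genes added as a covariate. The share of all genes called in either direction was 18.4% with all arrays. It was 13.1%, 15.6% and 12.8% without WT replicate 2, WT replicate 3 and null replicate 1. Without null replicate 2 and ΔG replicate 1 it was 14.7% and 17.2%, and with the covariate 7.92%. Null was also set against the 1 WT array of the same sex pattern, with the spread taken from the other groups.

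Among the MuvB core subunits, Lin9 changed most. LIN9 is the scaffold through which B-MYB is held on the complex. It read 6.31, 6.17 and 6.01 on the null arrays, against 5.59, 5.36 and 5.504 on the WT arrays. All null arrays lay above all WT arrays, and the log2 change was 0.68 (SE 0.14, limma adjusted p = 0.00596). The call was lost with the Y-linked covariate and against the WT array of the same sex pattern, where the log2 change was 0.61 and 0.66 (adjusted p = 0.117 and 0.0707).

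Lin54, the DNA-binding subunit, read 8.32, 8.22 and 8.09 on the null arrays, against 7.99, 7.84 and 7.90 on the WT arrays. The groups did not overlap, but the gap between the lowest null array and the highest WT array was small. The log2 change was 0.30 (SE 0.094, limma adjusted p = 0.0443), and it missed the threshold without any 1 of the WT arrays (adjusted p = 0.0577, 0.141 and 0.0965 without replicates 1, 2 and 3), ΔG replicate 1 (0.0565) or null replicates 1 and 2 (0.166 and 0.100), with the Y-linked covariate (0.285) and against the WT array of the same sex pattern (0.196).

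Lin52, the subunit that DYRK1A phosphorylates and that binds either pocket protein or B-MYB, read 8.09, 8.16 and 8.15 on the null arrays, against 7.97, 7.80 and 7.93 on the WT arrays. All null arrays were above all WT arrays by a small margin, with a log2 change of 0.24 (SE 0.071, limma adjusted p = 0.0384). A second Lin52 probe set, not used in the test, read 7.89, 7.99 and 7.99 in null and 7.77, 7.57 and 7.68 in WT, so the 2 probe sets differ between genotypes in the same direction. The call was lost without WT replicate 2 or 3 (adjusted p = 0.145 and 0.0636), ΔG replicate 1 (0.0549) or null replicate 1, 2 or 3 (0.0740, 0.0971 and 0.0929), with the Y-linked covariate (0.335) and against the WT array of the same sex pattern (0.254).

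Lin37, which in mouse cells is needed for repression by DREAM, read 7.57, 7.67 and 7.58 on the null arrays, against 7.70, 7.92 and 7.61 on the WT arrays. The groups overlapped. The log2 change was −0.138 with a 95% interval from −0.332 to 0.055 (limma adjusted p = 0.339). Dyrk1a read 10.02, 10.02 and 9.97 on the null arrays, against 9.95, 9.93 and 9.95 on the WT arrays. All null arrays were above all WT arrays, yet the log2 change was only 0.058, with an interval from −0.090 to 0.21 (adjusted p = 0.637). A second, dimmer Dyrk1a probe set read 8.32, 8.50 and 8.21 in null and 8.10, 8.25 and 8.35 in WT, with overlap.

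**Figure D2:**
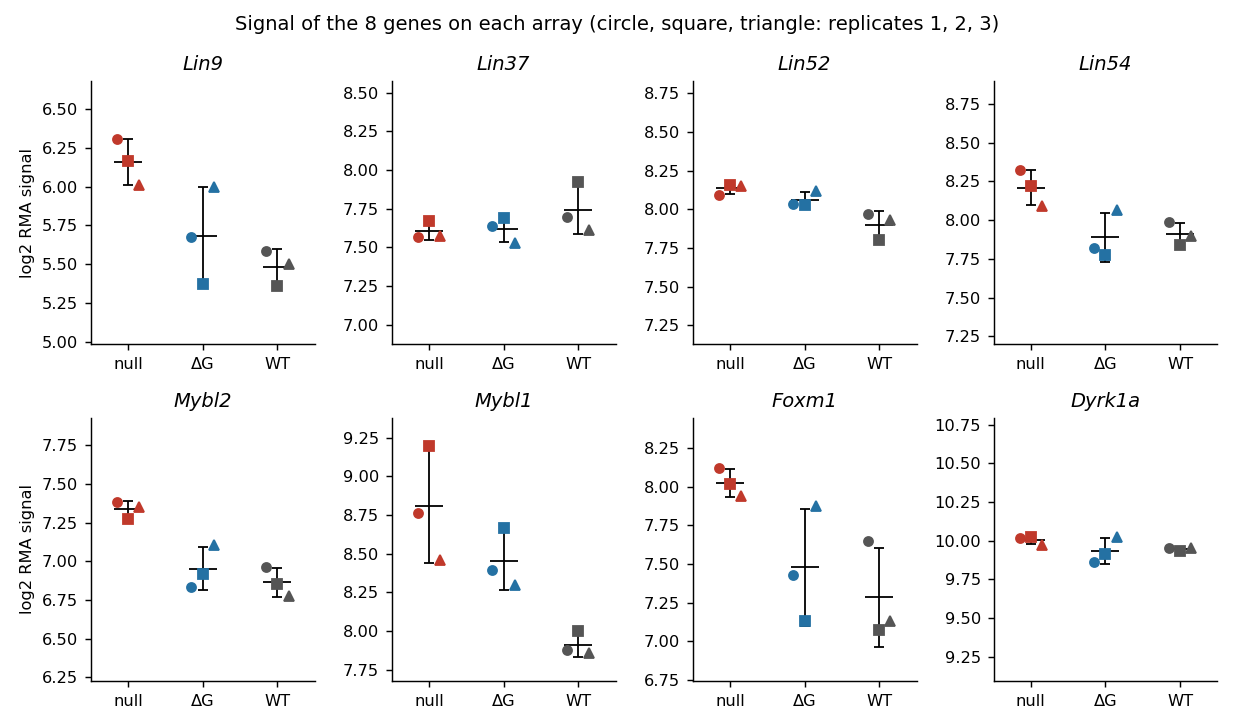
Log2 RMA signal of each gene on each array, by genotype (null, ΔG, WT); points are arrays, marked by replicate number, and the bar and whiskers are mean and SD of 3 arrays. Every panel spans the same log2 range, so that spreads can be compared. The null arrays lie above all WT arrays for every gene except Lin37, including Dyrk1a, which did not pass. How many of all genes separate in this way was not counted.

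Mybl2 and Mybl1 were the most stable rises. Mybl2 read 7.38, 7.27 and 7.35 on the null arrays, against 6.96, 6.86 and 6.77 on the WT arrays. The groups were far apart relative to their spread, at 7.34 ± 0.056 in null and 6.86 ± 0.096 in WT (mean ± SD, n = 3 each). Its log2 change was 0.47 (SE 0.0855, limma adjusted p = 0.00295), and it stayed called under all 20 alternatives tried, at adjusted p-values up to 0.0279. Mybl1 read 8.76, 9.20 and 8.46 on the null arrays, against 7.88, 8.0035 and 7.86 on the WT arrays. The null arrays were the more scattered (SD 0.37 in null, 0.079 in WT) and none came near the WT range. The log2 change of 0.89 (SE 0.16, limma adjusted p = 0.00257) was called under all 20 alternatives as well, at adjusted p-values up to 0.0338. Myb, the third gene of the family and one known mainly from blood progenitors, read 5.52, 5.66 and 5.59 in null and 5.25, 5.51 and 5.26 in WT and did not pass (log2 change 0.25, adjusted p = 0.0733).

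Foxm1 read 8.12, 8.02 and 7.94 on the null arrays, against 7.65, 7.07 and 7.13 on the WT arrays. All null arrays were higher, but WT replicate 1 lay much closer to them than the other WT arrays did. The log2 change was 0.74 (SE 0.18, limma adjusted p = 0.0157). It missed the threshold without WT replicate 2 (0.63, adjusted p = 0.0659), WT replicate 3 (0.66, adjusted p = 0.0534) or null replicate 1 (0.69, adjusted p = 0.0622), with the Y-linked covariate (0.83, adjusted p = 0.103) and against the WT array of the same sex pattern (0.89, adjusted p = 0.0562).

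The second comparison asked whether loss of the E2F contact alone moves these genes. None of the 8 passed in ΔG against WT in limma, where 0.602% of all genes rose and 0.211% fell. At an unadjusted p under 0.05, Mybl1 and Lin52 were higher and no gene was lower, beside 5.3% of all genes higher and 6.46% lower. The median log2 change of the 8 was 0.13, and that of all genes −0.018.

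Mybl1 had the largest difference of the 8 in ΔG. It read 8.39, 8.67 and 8.30 on the ΔG arrays, against 7.88, 8.0035 and 7.86 on the WT arrays. The groups did not overlap, and the lowest ΔG array was above the highest WT array. The log2 change was 0.54, with a 95% interval from 0.19 to 0.89 (limma adjusted p = 0.178). Lin52 read 8.03, 8.03 and 8.12 on the ΔG arrays, against 7.97, 7.80 and 7.93 on the WT arrays. These groups did not overlap either, with a log2 change of 0.16 and an interval from 0.0079 to 0.32 (adjusted p = 0.399).

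The other 6 genes overlapped between ΔG and WT, and the share of all genes that overlap was not counted. Foxm1 read 7.43, 7.13 and 7.88 on the ΔG arrays, against 7.65, 7.07 and 7.13 on the WT arrays. Its log2 change was 0.19 (interval −0.21 to 0.59, adjusted p = 0.766) with all arrays and −0.006 without ΔG replicate 3. Mybl2 read 6.84, 6.92 and 7.10 on the ΔG arrays, against 6.96, 6.86 and 6.77 on the WT arrays. Its log2 change was 0.089, with an interval from −0.099 to 0.28 (adjusted p = 0.772). Lin9 read 5.68, 5.37 and 5.999 on the ΔG arrays, with 1 ΔG array within the WT range of 5.36 to 5.59 (log2 change 0.20, interval −0.11 to 0.51, adjusted p = 0.649), and 0.041 without ΔG replicate 3. Lin54 read 7.82, 7.78 and 8.07 on the ΔG arrays and Lin37 7.64, 7.69 and 7.53, with log2 changes against WT of −0.0195 and −0.125 (intervals −0.225 to 0.186 and −0.318 to 0.0689). Dyrk1a read 9.86, 9.91 and 10.02 on the ΔG arrays, a log2 change of −0.011 (interval −0.16 to 0.14) whose sign turned with repeated quantile normalisation (0.013).

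**Figure D3:**
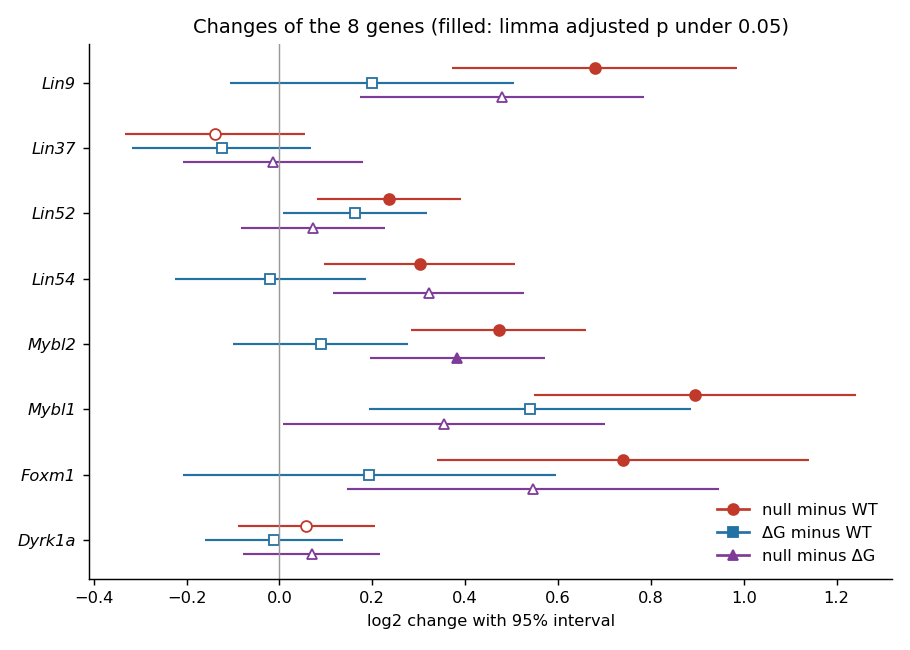
Log2 change of each gene in null minus WT, ΔG minus WT and null minus ΔG with its 95% interval from the limma fit; filled symbols have an adjusted p under 0.05. The 6 filled circles are the genes that rose in null against WT, no ΔG square is filled, and Mybl2 holds the 1 filled triangle.

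Set directly against ΔG, null cells had more Mybl2 RNA. This comparison set complete loss against loss of the E2F contact, and 1 of the 8 genes rose and none fell, where 4.27% of all genes rose and 4.44% fell in limma. A single call beside such shares says little about the 8 genes as a set. Sex pattern and genotype cannot be told apart here, since Xist was high on all null arrays and low on all ΔG arrays. Mybl2 read 7.38, 7.27 and 7.35 on the null arrays, against 6.84, 6.92 and 7.10 on the ΔG arrays. The lowest null array was above the highest ΔG array, and the log2 change was 0.38 (1.30-fold, SE 0.0855, adjusted p = 0.0184). Lin54, Lin9 and Foxm1 had log2 changes of 0.32, 0.48 and 0.55 (adjusted p = 0.0565, 0.0565 and 0.0927). For each of these 3 the null arrays all lay above the ΔG arrays, with ΔG replicate 3 the nearest. Such separation was not counted over all genes. Mybl1 had a change of 0.35 (interval 0.0080 to 0.70, adjusted p = 0.204), with overlap, since null replicate 3 (8.46) was below ΔG replicate 2 (8.67). Lin52, Dyrk1a and Lin37 had 0.073, 0.069 and −0.014, with intervals of −0.082 to 0.23, −0.079 to 0.22 and −0.21 to 0.18.

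That count of 1 depended on single arrays. Without ΔG replicate 3 it was 4, and Lin9, Lin54 and Foxm1 then passed beside Mybl2 (log2 changes 0.64, 0.41 and 0.75, adjusted p = 0.00542, 0.0126 and 0.0115). Mybl2 missed the threshold without ΔG replicate 1 or 2 (adjusted p = 0.0872 and 0.0689) or null replicate 1 or 3 (0.0802 and 0.0560), and the count was then 0, as it was with the Y-linked covariate (Mybl2 0.49, adjusted p = 0.239). The share of all genes called was 8.71% with all arrays and 12.1% without ΔG replicate 3. It was 3.82%, 4.44%, 4.25% and 6.07% without ΔG replicates 1 and 2 and null replicates 1 and 3, and 0.266% with the covariate. That covariate was 3.96 to 4.08 on the null arrays and 8.405 to 8.90 on the ΔG arrays. It nearly repeats this comparison, so calls lost with it say little.

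Within a genotype, the arrays did not order the 8 genes alike. Foxm1, Lin9 and Lin54 ran from high to low as replicates 1, 2, 3 in null, 3, 1, 2 in ΔG and 1, 3, 2 in WT, and the mean of the 43 late cycle target genes had the same order in each genotype. That mean was 8.51, 8.36 and 8.26 on the null arrays, 7.52, 7.41 and 8.10 on the ΔG arrays and 7.82, 7.24 and 7.28 on the WT arrays. Mybl1 instead ran as replicates 2, 1, 3 in all 3 genotypes, so that ΔG replicate 3 and WT replicate 1, the arrays with most late cycle signal of their groups, were not its highest. Mybl2 was highest on the same array as the targets in each genotype and differed from them in the order of the other two. With 3 arrays a group these orders are descriptions of single cultures.

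**Figure D4:**
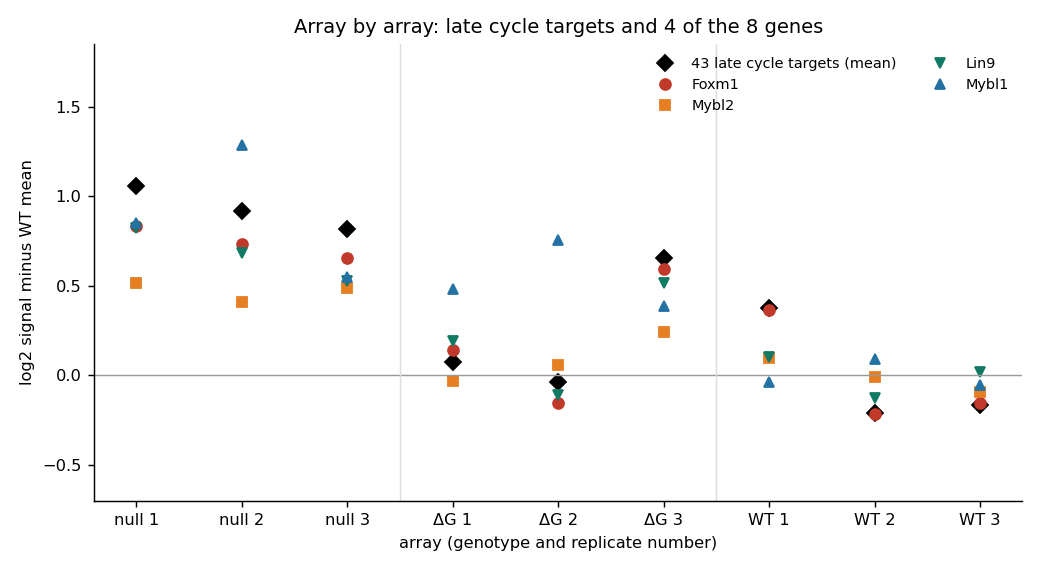
Log2 signal on each array minus the WT mean of the same quantity, for the mean of 43 late cycle targets and for Foxm1, Mybl2, Lin9 and Mybl1; the x axis names each array. Foxm1 and Lin9 sit near the target mean on ΔG replicate 3, while Mybl1 is higher on ΔG replicates 1 and 2 than on ΔG replicate 3.

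Genes for the pocket protein p107 and the dimerisation partner DP1 were higher in both mutants than in WT. Together with Rb1, which is no part of DREAM and is the gene at which the genotypes differ, 8 genes for DREAM partners and pocket proteins were listed. Of these, 3 rose and 1, Rb1, fell in null against WT, where 8.38% of all genes rose and 10.1% fell. In ΔG against WT 2 rose (0.602% of all genes), and in null against ΔG 1 rose and Rb1 fell (4.27% and 4.44% of all genes). Rbl1, the gene of p107, read 8.51, 8.69 and 8.51 on the null arrays, 7.97, 8.19 and 8.19 on the ΔG arrays and 7.10, 6.57 and 6.88 on the WT arrays. The 3 genotypes did not overlap, and Rbl1 was 3.29-fold higher in null and 2.41-fold higher in ΔG than in WT (limma adjusted p = 1.4e-05 and 0.00127). Its difference between null and ΔG, a log2 of 0.45 (adjusted p = 0.0447), was lost without WT replicate 3, without ΔG replicate 1 or 2 or without any 1 null array (0.0535 to 0.170). Tfdp1, which encodes DP1, rose 1.69-fold in null and 1.45-fold in ΔG against WT (adjusted p = 0.000144 and 0.0147), and its ΔG call was lost without WT replicate 2 or ΔG replicate 1 (0.0587 and 0.0676).

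Rbbp4, the remaining core subunit of MuvB, read 10.30, 10.36 and 10.18 on the null arrays, 10.10, 9.94 and 10.09 on the ΔG arrays and 9.87, 9.79 and 9.95 on the WT arrays. The null arrays lay above the others, and the log2 change against WT was 0.405 in null (adjusted p = 0.0049) and 0.17 in ΔG (adjusted p = 0.443). In null it was not called with the Y-linked covariate or against the WT array of the same sex pattern (0.31 and 0.33, adjusted p = 0.142 and 0.0988). Rbl2, the gene of p130 and the usual pocket protein of DREAM in resting cells, had log2 changes against WT of −0.124 in null and −0.235 in ΔG, and E2f4 0.145 and −0.038, E2f5 −0.024 and −0.045, and Tfdp2 0.25 and 0.27, none of which passed (adjusted p = 0.0580 to 0.940).

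Of 18 measured genes that act on this switch, 11 rose and 1 fell in null against WT, beside 8.38% and 10.1% of all genes. In ΔG against WT 2 rose, beside 0.602% of all genes, and in null against ΔG 5 rose, beside 4.27%. Cyclin E and CDK2, which phosphorylate pocket proteins and B-MYB, were among them. Ccne2 read 8.43, 8.33 and 7.90 on the null arrays, 7.03, 7.02 and 7.34 on the ΔG arrays and 6.73, 6.04 and 6.32 on the WT arrays. It did not overlap between any 2 genotypes, and it was 3.62-fold higher in null than in WT and 2.13-fold higher than in ΔG (limma adjusted p = 5.8e-05 and 0.00388), while ΔG against WT did not pass (log2 change 0.77, adjusted p = 0.0850). Ccne1 rose 1.95-fold in null and 1.61-fold in ΔG against WT (adjusted p = 7.55e-05 and 0.00892). Cdk2 rose 2.18-fold in null against WT, 1.51-fold in ΔG against WT and 1.44-fold in null against ΔG (adjusted p = 1.6e-05, 0.00959 and 0.00438), and its ΔG call was lost without WT replicate 2 (0.0563).

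Ccnf, whose product cyclin F restrains B-MYB, rose 2.27-fold in null against WT and 1.88-fold against ΔG (limma adjusted p = 0.000838 and 0.00813). Its log2 change in ΔG against WT was 0.27 (adjusted p = 0.601). Plk1, Ccna2 and Cdk1, kinases or cyclins that activate FOXM1 or B-MYB and are also on the target list, rose 2.31-fold, 1.88-fold and 1.84-fold in null against WT (adjusted p = 0.00328, 0.0119 and 0.00668). The Ccna2 call was lost when WT replicate 2 or null replicate 1 was left out (0.0515 and 0.0546). Plk1 also rose 1.89-fold in null against ΔG (adjusted p = 0.0261), a call lost without ΔG replicate 1 or 2 or any 1 null array (0.0541 to 0.109). Cdc25a, a phosphatase that activates CDK2, rose 1.54-fold in null against WT (adjusted p = 0.00114).

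The forkhead factor gene Foxo1 rose in null by 0.52 against WT and 0.60 against ΔG on the log2 scale (limma adjusted p = 0.0145 and 0.0143). Against WT the call was lost without null replicate 1 (0.0506), and against ΔG without that array or ΔG replicate 1 or 2 (0.0549 to 0.0619). Foxo3 and the CDK inhibitor Cdkn1b rose by 0.28 and 0.32 and Cdk6 fell by 0.27 in null against WT (adjusted p = 0.0384, 0.0490 and 0.0454). These 3 calls were near the threshold: Foxo3 and Cdkn1b lost theirs without any 1 null or WT array, Cdkn1b also without ΔG replicate 1, and Cdk6 without any 1 array except WT replicate 3 (adjusted p-values from 0.0513 to 0.178). As the mean of all its probe sets, Cdkn1b rose by 0.235 and was not called (limma adjusted p = 0.179). Dyrk1b, the closest relative of Dyrk1a, had log2 changes of −0.17 in null and −0.0265 in ΔG against WT (adjusted p = 0.168 and 0.944). The count of 12 in null against WT was 7 without null replicate 1, and the count of 5 against ΔG was 3 without that array or ΔG replicate 1 or 2 and 8 without ΔG replicate 3. The share of all genes called against WT was 18.4% with all arrays and 12.8% without null replicate 1. Against ΔG it was 8.71% with all arrays, and 4.25%, 3.82% and 4.44% without null replicate 1 and ΔG replicates 1 and 2. Without ΔG replicate 3 it was 12.1%. With the Y-linked covariate the counts were 6 and 0, and Ccna2, Cdk1, Foxo1, Foxo3, Cdkn1b and Cdk6 were the 6 no longer called against WT (adjusted p = 0.0792, 0.0796, 0.175, 0.109, 0.504 and 0.642). Foxo1, Foxo3, Cdkn1b and Cdk6 were not called against the WT array of the same sex pattern either (0.111, 0.0829, 0.375 and 0.523).

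The genes that MMB and FOXM1 activate in the late cell cycle rose together in null cells. Of 43 measured targets, 42 rose and none fell against WT, where 8.38% of all genes rose and 10.1% fell, and their median log2 change was 0.98, beside −0.010 for all genes. Pttg1, a regulator of chromosome separation, was the exception and was named after its value was seen (log2 change 0.060, limma adjusted p = 0.795). The count of 42 was 32 without null replicate 1, 33 without WT replicate 2, 35 without WT replicate 3, 36 without null replicate 2 and 41 without null replicate 3. The share of all genes called was then 12.8%, 13.1%, 15.6%, 14.7% and 14.8%, against 18.4% with all arrays. Spc25, of the kinetochore, read 8.43, 8.49 and 8.26 on the null arrays, 7.48, 7.45 and 8.03 on the ΔG arrays and 7.50, 7.23 and 7.23 on the WT arrays. Null arrays were above all others, and it rose 2.11-fold against WT (adjusted p = 0.000489). Kif23, Melk and Ckap2 rose 2.44-fold, 2.09-fold and 1.72-fold (adjusted p = 0.00155, 0.00143 and 0.000451), and the Kif23 call was lost with the Y-linked covariate (0.0518). Mki67, the proliferation marker, read 9.79, 9.46 and 9.61 on the null arrays, 8.74, 8.76 and 9.33 on the ΔG arrays and 9.08, 8.23 and 8.26 on the WT arrays, with a log2 change of 1.09 in null against WT (adjusted p = 0.00509).

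In ΔG against WT none of the 43 targets passed in limma, where 0.602% of all genes rose and 0.211% fell. At an unadjusted p under 0.05, 3 were higher, as 5.3% of all genes were. The median log2 change was 0.22, beside −0.018 for all genes. The change was above 0 for 42 of the 43 targets, and for 8631 of all 19938 genes. These 3 were Spc25, Ckap2 and Tpx2, with log2 changes of 0.34, 0.24 and 0.46, and Racgap1, at 0.40, had the next lowest p (limma adjusted p = 0.393, 0.399, 0.402 and 0.491). In null against ΔG, 19 rose and none fell, with a median of 0.70, where 4.27% of all genes rose and 4.44% fell. Bub1b, a spindle checkpoint kinase, Melk, Spc25 and Ckap2 were 2.02-fold, 1.75-fold, 1.67-fold and 1.46-fold higher there (adjusted p = 0.0136, 0.0141, 0.00979 and 0.00883). Bub1b and Melk lost that call without ΔG replicate 1 or 2 or null replicate 1 (0.0566 to 0.0663). The count of 19 was 42 without ΔG replicate 3 and 35 without WT replicate 1, but 2 without ΔG replicate 1, ΔG replicate 2 or null replicate 1 and 9 without null replicate 2 or null replicate 3. The share of all genes called in either direction moved as well, at 8.71% with all arrays, 12.1% without ΔG replicate 3, 8.15% without WT replicate 1, 3.82%, 4.44% and 4.25% without ΔG replicates 1 and 2 and null replicate 1, and 6.46% and 6.07% without null replicates 2 and 3. With the Y-linked covariate, 14 of the 43 targets were called in null against WT and none in null against ΔG, and the share of all genes called was then 7.92% and 0.266%, against 18.4% and 8.71% without it. Between null and ΔG that covariate nearly repeats the genotype, so the loss of calls there says little about the targets.

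**Figure D5:**
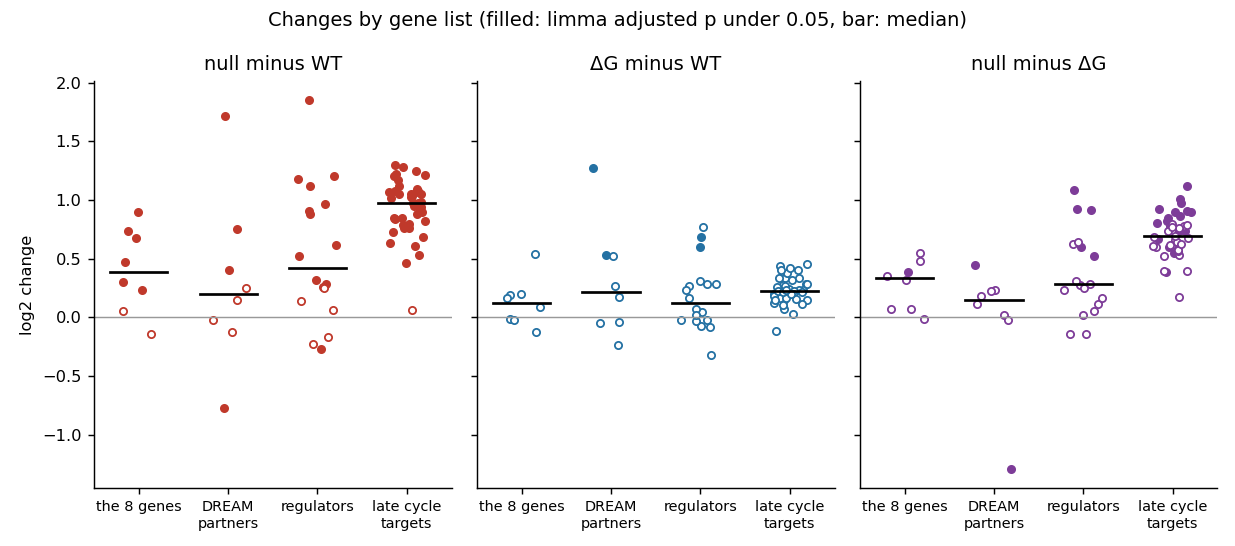
Log2 changes of the 8 genes, 8 DREAM partners, 18 regulators and 43 late cycle targets in the 3 comparisons; each point is a gene, filled where the limma adjusted p is under 0.05, and the bar is the median. Of the targets, 42 are filled in null minus WT, none in ΔG minus WT and 19 in null minus ΔG.

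The profiles most like those of the transcription factors over the 9 arrays were found by the root mean square difference in log2 signal after each gene was centred on its own mean. For Foxm1 the nearest were the mitotic kinesins Kif22 and Kif20a, the cohesin protector Sgo1, the phosphatase Cdc25c and the kinase Nek2, with differences of 0.039, 0.065, 0.073, 0.074 and 0.075, against an SD of 0.42 for Foxm1 over the arrays. All of these except Kif22 are on the target list, which holds 43 of the 19938 genes. For Mybl2 (SD 0.24) they were the Wnt receptor gene Fzd4, Ggt7, the splicing factor gene Tra2b, Acaca, of fatty acid synthesis, and Spc24, of the kinetochore, with differences of 0.035 to 0.062. For Mybl1 (SD 0.44) they were the kinase subunit gene Pik3cb, the laminin gene Lama5, the proteoglycan gene Cspg4, Arap2 and Aif1l, at 0.100 to 0.118. None of these 5 is on the lists used here. The 5 had log2 changes of 0.75 to 1.04 in null and 0.45 to 0.64 in ΔG against WT. They were picked for likeness to Mybl1 on these same arrays, so changes near its own follow from the choice and are no separate support.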

How the data were processed

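The deposited table holds log2 signal that the authors made by RMA in BRB-ArrayTools, per the series' design text, and the submitters' processing notes also list affy. Software versions, probe annotation and build were not given in those sources. RMA equalises array distributions by quantiles, so a change shared by most genes would not show. Of 35512 probe sets, 21789 had 1 gene symbol in a platform annotation table, 1621 several and 12101 none; the single symbols gave 19938 genes. All 9 arrays were fitted together, 1 coefficient per genotype, with lmFit and eBayes (limma 3.58.1 under R 4.3.3), leaving 6 residual degrees of freedom, and p-values were adjusted by Benjamini-Hochberg over all genes, with calls at 0.05. Whether the arrays of a genotype are separate embryos is not stated, and p-values reflect only how these arrays vary, which may be technical variation. The fit was tested on simulated data. The number of arrays limits precision, and no detection calls were used. The members, lists, tests and alternatives were chosen with earlier results of these data known. Named genes are the members, the DREAM partners, called regulators, the lowest p-values of the lists and the nearest profiles. Promoters came from RefSeq (GRCm38.p6); its table was used for names and promoters only, since the array's build is unknown. Of 21 listed regulators and 44 listed targets, 18 and 43 were analysed here.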

Additional observations from a re-analysis of the deposited data

How the results depend on the processing

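For the 8 genes in 3 comparisons, 472 alternative values were computed: 419 kept direction and side of the threshold, 32 lost a call, 9 gained one and 12 changed sign. Alternatives for named genes outside the 8, and the short E2F word, were chosen after seeing the data. Mybl1 and Mybl2 stayed called in null against WT throughout. Leaving out single arrays gave 3 to 6 of the 8 genes called in null against WT and 0 to 4 in null against ΔG. It gave 1 to 3 DREAM partners in ΔG against WT and 1 to 2 in null against ΔG. For regulators it gave 7 to 11 in null against WT, 1 to 3 in ΔG against WT and 3 to 8 in null against ΔG. For targets it gave 32 to 42 in null against WT and 2 to 42 in null against ΔG. The share of all genes called then ran from 12.8% to 19.5% in null against WT. It was 0.311% to 1.26% in ΔG against WT and 3.82% to 12.1% in null against ΔG. With the Y-linked covariate the 8 genes gave 2 calls in null against WT and 0 in null against ΔG, DREAM partners 1 in null against ΔG, regulators 6 and 0, and targets 14 and 0. The share of all genes called with it was 7.92% in null against WT and 0.266% in null against ΔG, where the covariate nearly repeats the genotype. Against the WT array of the same sex pattern, the genes called in null against WT in the main fit kept their direction. The log2 changes were 0.95 for Mybl1, 0.89 for Foxm1, 0.66 for Lin9, 0.56 for Mybl2, 0.31 for Lin54 and 0.21 for Lin52. Dyrk1a was also higher in null there, and Lin37 was lower. That comparison holds 1 WT array, so its calls are not counted here. In null against ΔG, array weights gave 4 of the 8 genes, 10 regulators and 41 targets, repeated quantile normalisation gave 2 of the 8 genes, 4 DREAM partners and 8 regulators, robust eBayes gave 11 targets, and fitting only the 2 groups gave 29 targets. In that order of settings 18.5%, 9.75%, 8.35% and 8.27% of all genes were called, against 8.71% in the main fit. The cause of these shifts was not tested.

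Signs turned for changes near 0. Lin37 was 0.027 in null against WT and 0.227 in null against ΔG with the Y-linked covariate, and −0.059 to 0.021 in null against ΔG when single arrays were left out. In ΔG against WT, leaving out single arrays gave −0.109 to 0.037 for Lin54, −0.006 to 0.377 for Foxm1 and −0.057 to 0.024 for Dyrk1a, and Dyrk1a was 0.013 after repeated quantile normalisation and 0.052 as the mean of its probe sets. Lin52 was also lost in null against WT after median centring and when only the 2 groups were fitted (adjusted p = 0.0576 and 0.0588).

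The replicate numbers were not taken as pairs, because no label ties a number to a litter. Correlations of same-numbered arrays' deviations from their genotype means ran from −0.084 to 0.269. Those of arrays with different numbers ran from −0.241 to 0.137. These values do not settle whether same-numbered arrays share a litter. With the replicate block, 1 of the 8 genes was called in ΔG against WT (Mybl1, adjusted p = 0.0467), 2 in null against ΔG (Lin9 beside Mybl2) and 4 in null against WT, and DREAM partners gave 1 call in null against ΔG. Lin52 and Lin54 were the genes lost in null against WT (limma adjusted p = 0.0502 and 0.0564). The share of all genes called with the block was 1.06% in ΔG against WT, 9.92% in null against ΔG and 18.9% in null against WT. Precision is limited by the number of arrays, and signal over background was not assessed.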
